A study of Mus musculus with 28 samples.

Results

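The genes examined here make, use and dispose of nicotinamide adenine dinucleotide (NAD) in the heart: Nampt, Nmrk1, Nmrk2, Nmnat1 and Nmnat3, which build it from vitamin B3 precursors, Nnmt, which removes nicotinamide by methylation, and Sirt1, Sirt3, Parp1 and Cd38, which consume it. They are 10 of the 45513 gene rows of a table of read counts from mouse ventricular myocardium. Of these members 9 were found by the gene name in the table. The row of the tenth, identifier ENSMUSG00000020572, carries the name Mampt, and it was taken as Nampt because the reference annotation pairs that identifier with Nampt, so every Nampt value below rests on the identifier. Rows were selected by name and not by a measured value, though the list was chosen with earlier results of these data known. All 10 members passed the filter on low counts.

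The table held 28 libraries, each from 1 male adult C57BL/6 mouse. At 6 weeks of age the mice had either a sham operation or 5/6 nephrectomy, in which part of the left kidney and then the whole right kidney are removed, giving a model of chronic kidney disease (CKD). All mice, controls included, ate a diet with 1% hydroxyproline and 0.5% calcium. On day 7 they received by gavage either a single dose of Oxalobacter formigenes (Oxf), a gut bacterium that lives on oxalate, or bacteria-free culture medium (vehicle). The study asked how the heart in CKD differs with these bacteria. The groups were sham-vehicle (10 mice), CKD-vehicle (6 mice), sham-Oxf (5 mice) and CKD-Oxf (7 mice). The design planned 10 mice per group, and the remaining mice were not analysed here. The groups hold separate ranges of mouse numbers (901 to 910, 913 to 920, 921 to 929 and 931 to 940, in that order of sham-vehicle, CKD-vehicle, sham-Oxf and CKD-Oxf), so mouse number and group cannot be told apart.

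NAD carries electrons in energy metabolism and is also a substrate that sirtuins, poly(ADP-ribose) polymerases and Cd38 break down, releasing nicotinamide. Nampt, the rate-limiting enzyme of salvage, turns that nicotinamide into nicotinamide mononucleotide, the nicotinamide riboside kinases Nmrk1 and Nmrk2 make the same product from nicotinamide riboside, and the Nmnat enzymes complete NAD. Heart muscle depends mostly on salvage, Nmrk2 is the muscle form of the kinase and is known to rise in several models of heart failure, and Nampt is a known target of the circadian clock.

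Promoter windows, from 250 bases before to 50 after a RefSeq start on GRCm38.p6, were read for the 3 members to which the results below return most: Nampt and Nmrk2, the members whose levels varied most within groups beside other genes of like level, and Sirt1, which varied least. Capitals mark E-boxes (CACGTG, bound by the clock factors among others) in Sirt1 and the TATA sequence (TATAAA) in Nmrk2. No searched motif was found in the Nampt window, which is therefore in lower case throughout.
Nampt, chr12:32820085-32820384, plus strand: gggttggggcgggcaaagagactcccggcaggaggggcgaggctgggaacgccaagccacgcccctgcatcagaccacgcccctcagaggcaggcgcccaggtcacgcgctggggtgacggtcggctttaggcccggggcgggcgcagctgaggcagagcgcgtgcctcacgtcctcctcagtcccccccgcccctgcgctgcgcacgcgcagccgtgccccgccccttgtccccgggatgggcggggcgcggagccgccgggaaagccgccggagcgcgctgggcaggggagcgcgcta
Nmrk2, chr10:81201988-81202287, minus strand: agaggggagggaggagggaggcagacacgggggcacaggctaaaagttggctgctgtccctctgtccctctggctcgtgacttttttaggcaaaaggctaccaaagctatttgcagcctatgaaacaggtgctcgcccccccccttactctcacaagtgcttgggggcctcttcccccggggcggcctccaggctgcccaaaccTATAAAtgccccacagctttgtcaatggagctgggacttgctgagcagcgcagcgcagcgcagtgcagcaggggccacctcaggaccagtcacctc
Sirt1, chr10:63338986-63339285, minus strand: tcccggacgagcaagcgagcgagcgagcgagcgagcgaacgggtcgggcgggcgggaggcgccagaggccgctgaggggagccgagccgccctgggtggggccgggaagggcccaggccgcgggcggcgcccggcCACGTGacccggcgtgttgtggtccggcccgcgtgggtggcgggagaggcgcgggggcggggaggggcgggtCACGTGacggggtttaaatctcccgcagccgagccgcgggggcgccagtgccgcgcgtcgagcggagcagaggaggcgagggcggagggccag

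The Nmrk2 window differs from the other 2 in composition. It holds 8 CG pairs, against 36 in Nampt and 47 in Sirt1, where the median over all 32851 RefSeq windows of the same length was 7. Its TATAAA begins at position -46 relative to the start, and 13.6% of all windows hold that sequence on either strand. The E-boxes of Sirt1 begin at positions -115 and -43, and CACGTG occurs in 7.15% of windows. Windows were available for 9 members (11 windows in all): Parp1 had the other E-box, at position -49, and no member window held a D-box (TTATGTAA or TTACGTAA), which occurs in 1.06% of windows. These matches describe letters in a window and show no binding.

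Library totals, rounded, ran from 19799000 to 65378200 counts. Sums of 7 cardiomyocyte markers were high in all groups (16907 to 43139 CPM, counts per 1000000 of the scaled library total), and atrial markers were also detected (15.6 to 1689 CPM over 4 genes). Adipose markers varied from 0.0474 to 430 CPM and skeletal muscle markers from 1.78 to 565 CPM, both widely within groups. The library sham-Oxf replicate 1 stood apart, with the lowest total and 15879 genes with a count where the others had 27128 to 33995. The share of counts on 7SL RNA (Rn7s1 and Rn7s2), which scaffolds the signal recognition particle, ran from 1.83% to 20.98%. Its median was lowest in sham-Oxf (2.70%), then 7.73% for CKD-Oxf, 10.1% for sham-vehicle and 14.0% for CKD-vehicle. A clock score, the mean log2 CPM of 8 evening clock genes less that of 4 morning ones, centred on sham-vehicle, also differed: its range was 0.83 to 2.51 for sham-Oxf, -0.18 to 2.08 for CKD-Oxf, -1.76 to 2.05 for sham-vehicle and -2.71 to -0.29 for CKD-vehicle. In whole tissue, fewer cells of a type and less RNA per cell cannot be told apart.

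Nampt and Nmrk2 were the most abundant members for their length. Per kilobase of annotated exon, the median over 28 libraries was 13.6 CPM for Nampt and 13.2 for Nmrk2, and Nampt was the higher of the pair in 14 of 28 libraries, so they had no order. Nmrk2 was above the next gene, Parp1 (4.90 CPM per kilobase), in 28 of 28 libraries. Nmnat1 (3.93), Cd38 (3.74) and Sirt1 (3.14) followed, with Nmnat1 above Cd38 in 15 libraries and Cd38 above Sirt1 in 18. Sirt1 was above Sirt3 (1.87) in 28 of 28, and Sirt3 above Nmnat3 (1.46) in 23. Nnmt (0.982) and Nmrk1 (0.930), the kinase form found in most tissues, were lowest, with Nnmt the higher in 18 libraries. The muscle kinase Nmrk2 was far above the general form Nmrk1: its lowest library, at 6.30 CPM per kilobase, exceeded the highest for Nmrk1, at 1.27. Lengths counted every annotated exon of a gene (5973 bases for Sirt3, 5331 for Sirt1), whichever transcripts were expressed, so the order depends on the annotation.

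**Figure D1:**
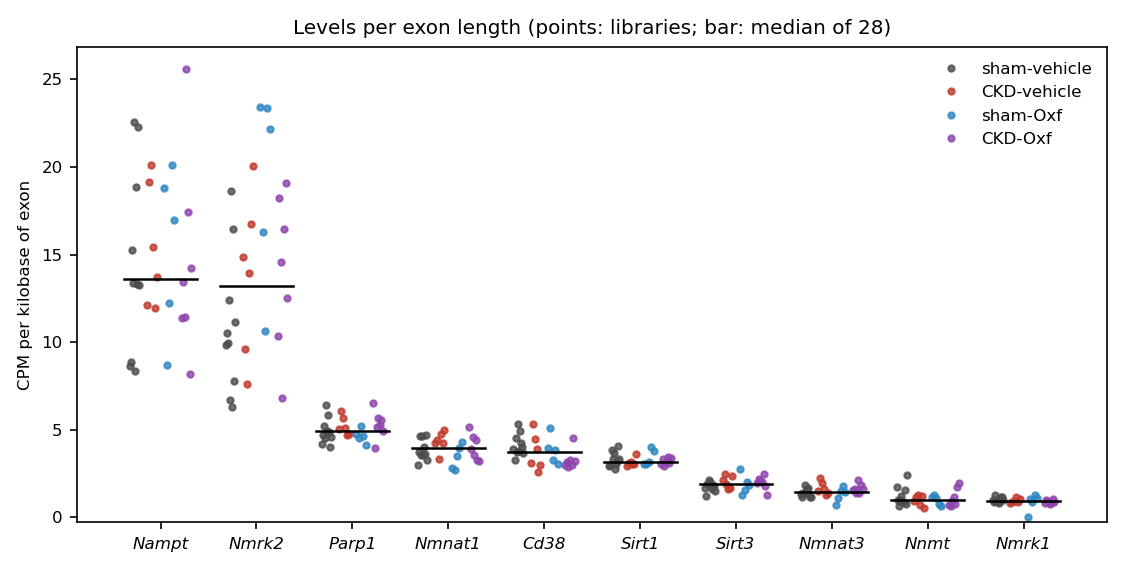
Level of each member in CPM per kilobase of annotated exon (vertical axis, linear), genes in order of their median; each point is 1 library, coloured by group, and the bar is the median of 28. Nampt and Nmrk2 overlap at 13.6 and 13.2 and lie above the other 8 genes, and the single Nmrk1 point at 0 is sham-Oxf replicate 1.

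No member differed between groups after adjustment. With edgeR's quasi-likelihood test and Benjamini-Hochberg adjustment over 24273 genes, 0 of 10 members had an adjusted p under 0.05 for CKD-vehicle against sham-vehicle, where 0.00824% of all genes did. The count was also 0 for CKD-Oxf against CKD-vehicle (background 0.033%), for sham-Oxf against sham-vehicle (0%) and for CKD-Oxf against sham-Oxf (0%). It was 0 for the Oxf difference averaged over surgery (2.81%), for the surgery difference averaged over gavage (0%) and for the interaction of surgery and gavage (0%). No member tested passed in any of 200 alternative fits of these 7 contrasts, DESeq2 and limma included, with a smallest adjusted p of 0.0592, for Nmrk2. Nmrk1 was not tested in the fits that asked for at least 10 counts in every library.

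At an unadjusted p under 0.05, 4 of the 70 tests of a member in a contrast passed, in 2 genes. Nmrk2 was the 1 of 10 members in sham-Oxf against sham-vehicle (12.6% of all genes), in the averaged Oxf difference (23%) and in the interaction (3.55%). Nmnat3 was the 1 of 10 in the averaged surgery difference (10.6%). In CKD-vehicle against sham-vehicle, CKD-Oxf against CKD-vehicle and CKD-Oxf against sham-Oxf the count was 0 of 10, where the background was 4.46%, 13.1% and 8.23%. Nor did any member's levels separate without overlap between groups in the 4 pairwise comparisons, as those of 0.128%, 0.478%, 0.227% and 0.272% of all genes did, in the order in which those comparisons were first given. The median log2 difference of the members was -0.037 for the averaged Oxf difference, against 0.0031 over all genes tested, and -0.0092 for the averaged surgery difference, against -0.00068. Several of these contrasts share groups, so their values are not independent.

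**Figure D2:**
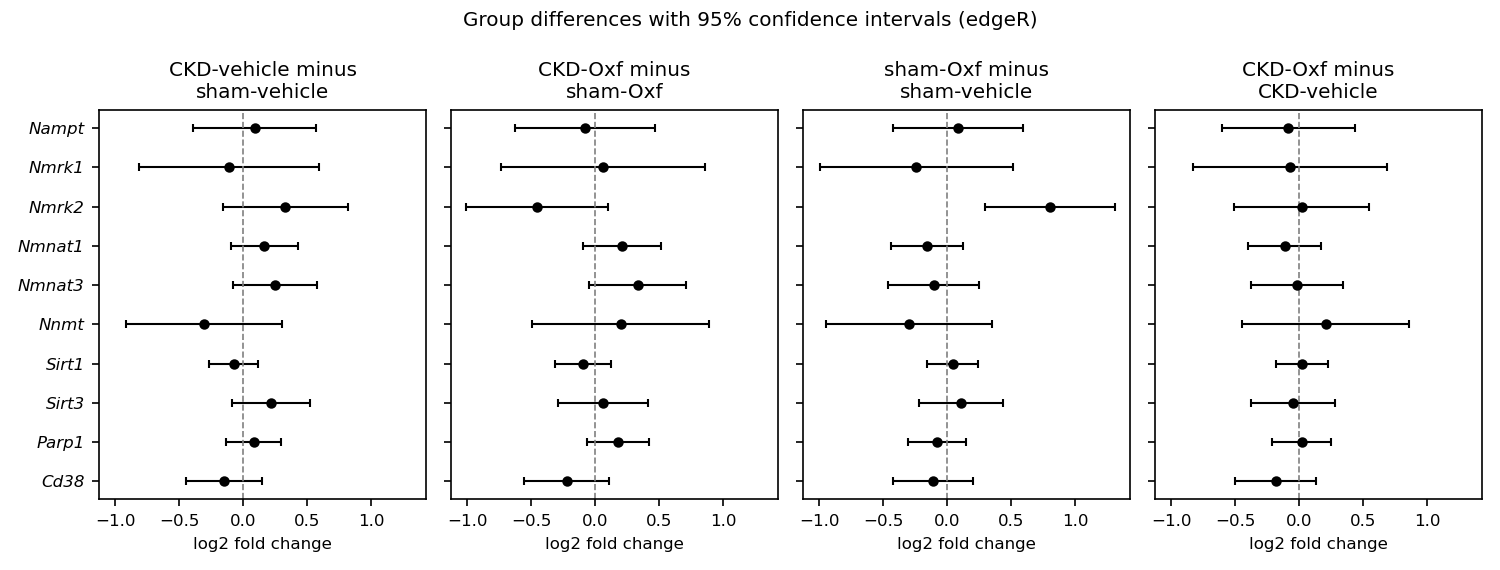
Log2 fold change (horizontal axis) of each member in the 4 pairwise comparisons, points with 95% confidence intervals from edgeR. The Nmrk2 interval in sham-Oxf against sham-vehicle is the one that lies clear of 0, and Nmrk1 and Nnmt have the widest intervals.

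Nampt lies on chr12:32819545-32853349 (plus strand, GRCm38) and encodes nicotinamide phosphoribosyltransferase. Its level ran over a 3.13-fold range, from 41.3 to 129 CPM. It had a lowest, median and highest value of 42.3, 67.4 and 114 CPM in sham-vehicle, of 60.4, 73.7 and 102 CPM in CKD-vehicle, and of 41.3, 67.9 and 129 CPM in CKD-Oxf. The 5 sham-Oxf libraries, replicates 1 to 5, had 95.1, 44.0, 61.8, 102 and 85.7 CPM. All 4 groups overlapped, and the highest value of all, 129 CPM, was CKD-Oxf replicate 4, without which that group's mean of 73.4 CPM was 63.9. The log2 difference was -0.00072 ± 0.18 (SE) for Oxf averaged over surgery and 0.0048 ± 0.18 for surgery averaged over gavage. The 95% intervals ran from -0.37 to 0.36 and from -0.36 to 0.37. With the log2 7SL share as a covariate the differences were 0.33 ± 0.14 (adjusted p = 0.240) and -0.22 ± 0.13 (adjusted p = 0.623). Within groups the SD of log2 CPM was 0.49, larger than in 87.4% of the 1190 genes of like level.

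Nmrk2, on chr10:81198170-81202051 (minus strand), was the member with the largest difference between groups. Its lowest, median and highest values were 11.7, 19.0 and 34.6 CPM in sham-vehicle and 14.1, 26.7 and 37.2 CPM in CKD-vehicle. CKD-Oxf had 12.7, 27.01 and 35.3 CPM, and the sham-Oxf replicates had 43.4, 30.2, 19.7, 43.3 and 41.1 CPM. Of the sham-Oxf libraries 3 were above every other library of the study, while replicate 3 was near the sham-vehicle median. The highest was replicate 1, the library with few detected genes. The sham-Oxf mean was 35.5 CPM with that library and 33.5 CPM without it. In sham mice, log2 Nmrk2 was 0.80 ± 0.25 (SE) higher with Oxf than with vehicle (95% interval 0.29 to 1.31), with an unadjusted p of 0.00315 and an adjusted p of 0.210 in edgeR. In CKD mice the same difference was 0.02 ± 0.26 (-0.51 to 0.55). The interaction, -0.78 ± 0.36, had an unadjusted p of 0.0384 and an adjusted p of 1, so the responses of sham and CKD mice were not shown to differ. Averaged over surgery, the Oxf difference was 0.41 ± 0.18 (adjusted p = 0.171). CKD-vehicle exceeded sham-vehicle by 0.33 ± 0.24 (adjusted p = 0.955), CKD-Oxf against sham-Oxf gave -0.45 ± 0.27 (adjusted p = 0.736), and the averaged surgery difference was -0.06 ± 0.18.

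The Nmrk2 differences were also fitted with covariates. With the clock score as a covariate the sham-Oxf difference was 0.61 ± 0.32 (unadjusted p = 0.0676), and with the log2 7SL share it was 0.63 ± 0.25 (unadjusted p = 0.0175). For the averaged Oxf difference these fits gave 0.18 ± 0.30 (unadjusted p = 0.560) and 0.26 ± 0.18 (unadjusted p = 0.164), against an SE of 0.18 without a covariate. The clock score was mostly higher with Oxf, so the fit with it cannot cleanly separate the clock from the gavage. Leaving out each library in turn kept the sham-Oxf difference between 0.71 and 0.93. Summed skeletal muscle markers were 2.32 to 24.7 CPM in sham-Oxf (median 2.65) and 2.31 to 488 CPM in sham-vehicle (median 3.31), and the part of these markers in the result was not tested. Of the Nmrk2 exon bases, 270 (14.6%) are shared with Atcayos, a gene on the opposite strand, and the sources used here do not say whether reads were counted by strand. Atcayos stood at 20.3 to 46.2 CPM, and in sham mice its log2 level was 0.42 ± 0.15 higher with Oxf (adjusted p = 0.235).

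**Figure D3:**
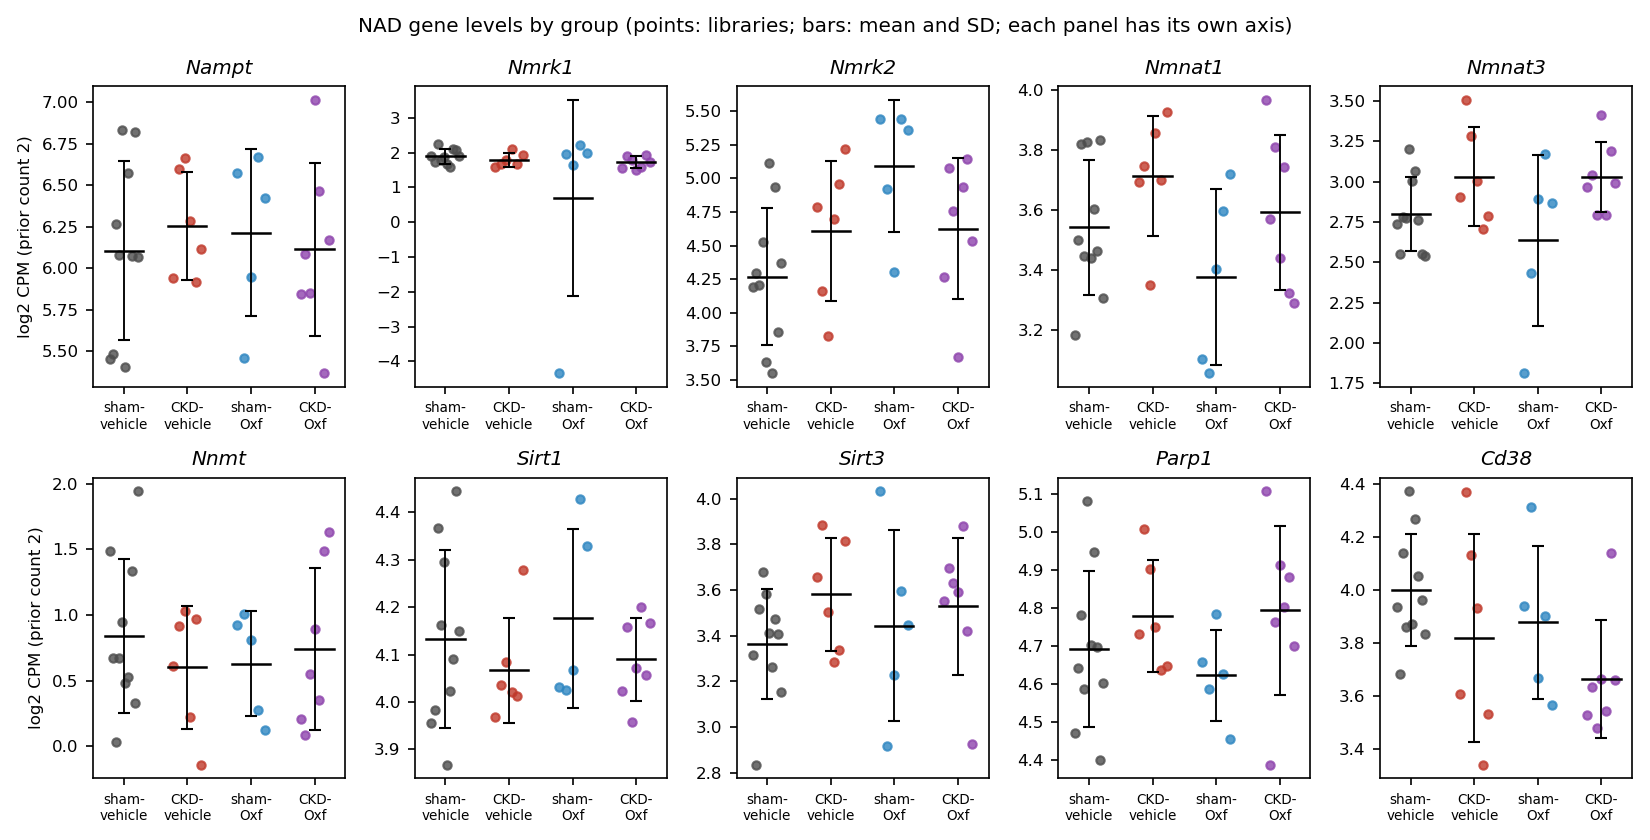
Log2 CPM (prior count 2) of the 10 members, 1 panel each with its own vertical axis; points are libraries and bars the mean with SD for sham-vehicle (10), CKD-vehicle (6), sham-Oxf (5) and CKD-Oxf (7). Groups overlap in every panel, 3 sham-Oxf points are highest for Nmrk2, and the low Nmrk1 point is the sham-Oxf library with 0 counts.

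Nmrk1, on chr19:18631950-18652428 (plus strand), was low in every library. It ran from 2.77 to 4.67 CPM in all libraries except sham-Oxf replicate 1, where 0 counts were recorded. A count of 0 there allows up to 0.142 CPM (3 counts, for counting error alone), and that is the library with few detected genes. The sham-Oxf mean was 3.10 CPM with it and 3.86 CPM without it, against 3.69 ± 0.54 (SD, n = 10) in sham-vehicle. The Oxf difference averaged over surgery was -0.16 ± 0.26 on the log2 scale and the surgery difference -0.02 ± 0.26 (95% intervals -0.69 to 0.38 and -0.55 to 0.51).

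The Nmnat enzymes join nicotinamide mononucleotide to adenylate, Nmnat1 in the nucleus and Nmnat3 in mitochondria. Nmnat3, on chr9:98287435-98420438 (plus strand), had 5.77, 6.77 and 9.15 CPM (lowest, median, highest) in sham-vehicle and 6.47, 7.70 and 11.3 CPM in CKD-vehicle. CKD-Oxf had 6.89, 7.91 and 10.6 CPM, and the sham-Oxf replicates had 3.46, 5.36, 7.37, 8.94 and 7.26 CPM. The lowest value of all, 3.46 CPM, was that of sham-Oxf replicate 1, the library with few detected genes. The sham-Oxf mean was 6.48 CPM with that library and 7.22 CPM without it. Both CKD medians were above both sham medians, with overlap in all pairs of groups. The surgery difference averaged over gavage was 0.29 ± 0.12 (95% interval 0.04 to 0.54), with an unadjusted p of 0.0251 and an adjusted p of 0.410 in edgeR, and the Oxf difference was -0.06 ± 0.12. Nmnat1, on chr4:149467572-149485202 (minus strand), ran from 8.26 to 15.6 CPM. Its group means were 11.7 ± 1.85 CPM (SD, n = 10) for sham-vehicle, 10.5 ± 2.13 (n = 5) for sham-Oxf, 13.2 ± 1.73 (n = 6) for CKD-vehicle and 12.2 ± 2.20 (n = 7) for CKD-Oxf. Its averaged surgery difference was 0.19 ± 0.10 (adjusted p = 0.501) and its Oxf difference -0.14 ± 0.10 (adjusted p = 0.430).

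Nnmt, on chr9:48591877-48605153 (minus strand), encodes nicotinamide N-methyltransferase and had 32 to 156 counts per library. It ran from 0.858 to 3.8 CPM, with medians of 1.41 CPM in CKD-Oxf, 1.55 in sham-vehicle, 1.66 in CKD-vehicle and 1.70 in sham-Oxf. The averaged differences were -0.04 ± 0.22 for Oxf and -0.05 ± 0.22 for surgery. Adipose tissue and liver are known to express Nnmt strongly. Liver markers summed to 4.25 to 115 CPM over 7 genes and adipose markers to 0.0474 to 430 CPM over 6 genes, and the part of either in the Nnmt level was not tested.

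The sirtuins are NAD-dependent deacylases, Sirt1 mainly nuclear and Sirt3 mitochondrial. Sirt1, on chr10:63319005-63381704 (minus strand), was the most even member. It had 14.6, 17.3 and 21.7 CPM (lowest, median, highest) in sham-vehicle, 15.6, 16.3 and 19.4 in CKD-vehicle and 15.5, 16.8 and 18.3 in CKD-Oxf. The sham-Oxf replicates had 16.3, 16.2, 16.7, 21.5 and 20.0 CPM. Its highest library was 1.49 times its lowest, and its within-group SD of 0.15 on the log2 scale was larger than in 6.20% of the 2807 genes of like level. Its intervals were accordingly narrow: the Oxf difference averaged over surgery was 0.03 ± 0.07 (-0.11 to 0.18) and the surgery difference -0.08 ± 0.07 (-0.23 to 0.06).

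Sirt3 lies on chr7:140863666-140882309 (minus strand). It had 7.09, 10.6 and 12.8 CPM in sham-vehicle, 9.71, 11.9 and 14.7 in CKD-vehicle and 7.54, 12.01 and 14.7 in CKD-Oxf. The sham-Oxf replicates had 16.3, 7.498, 9.31, 12.1 and 10.9 CPM, so that group held the highest Sirt3 library of all, again its replicate 1. The averaged surgery difference was 0.14 ± 0.11 (adjusted p = 0.684) and the Oxf difference 0.03 ± 0.11. Sirt3 shares 418 exon bases with Ric8a and 342 with Psmd13, both on the opposite strand, so part of its count cannot be assigned with the strand use unknown.

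Parp1 and Cd38 break NAD down, Parp1 as the main polymerase that answers DNA damage and Cd38 as a surface glycohydrolase of immune and endothelial cells among others. Parp1, on chr1:180568924-180601254 (plus strand), ran from 20.9 to 34.4 CPM, with group medians between 24.7 and 27.8 CPM. The averaged differences were -0.03 ± 0.08 for Oxf and 0.13 ± 0.08 for surgery (adjusted p = 0.552). Cd38, on chr5:43868553-43912375 (plus strand), ran from 10.1 to 20.7 CPM. Its means were 16.1 ± 2.44 CPM (SD, n = 10) for sham-vehicle, 14.9 ± 3.12 (n = 5) for sham-Oxf, 14.5 ± 4.02 (n = 6) for CKD-vehicle and 12.8 ± 2.20 (n = 7) for CKD-Oxf. Its averaged differences were -0.15 ± 0.11 for Oxf (adjusted p = 0.437) and -0.19 ± 0.11 for surgery (adjusted p = 0.543). Leukocyte markers summed to 67.4 to 204 CPM and endothelial markers to 527 to 1126 CPM, and their part in the Cd38 level was not tested.

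Within groups, Nampt followed the 7SL share. The 3 libraries with the most Nampt were CKD-Oxf replicate 4 (129 CPM, 20.6% 7SL), sham-vehicle replicate 5 (114 CPM, 19.9%) and sham-vehicle replicate 9 (113 CPM, 12.5%). The 3 with the least were CKD-Oxf replicate 6 (41.3 CPM, 1.95%), sham-vehicle replicate 6 (42.3 CPM, 2.30%) and sham-vehicle replicate 1 (43.8 CPM, 7.82%). After the top 3 came sham-Oxf replicate 4 (101.7 CPM), with a low share of 2.70%, and CKD-vehicle replicate 3 (101.5 CPM), with 20.98%. In an edgeR fit with the groups as terms, Nampt rose by 0.33 ± 0.06 on the log2 scale per doubling of the share (adjusted p = 2.08e-04), and Sirt3 by 0.17 ± 0.05 (adjusted p = 0.00543). These were 2 of 10 members (1 of 9 without the row matched by identifier), and 37.7% of all genes tested passed the same test, so the members did not stand out among the genes of these libraries in this respect. The slope for Nampt was past the threshold in each of 34 alternative fits, and that for Sirt3 in 33, the exception being the sham-vehicle libraries alone. Nmrk2 went the other way without passing, at -0.18 ± 0.08 (adjusted p = 0.0872). It passed with DESeq2 (adjusted p = 0.0487) and when sham-Oxf replicate 1, sham-Oxf replicate 3 or CKD-Oxf replicate 5 was left out. The other 7 members had slopes between -0.18 and 0.07, and none of those 7 passed.

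**Figure D4:**
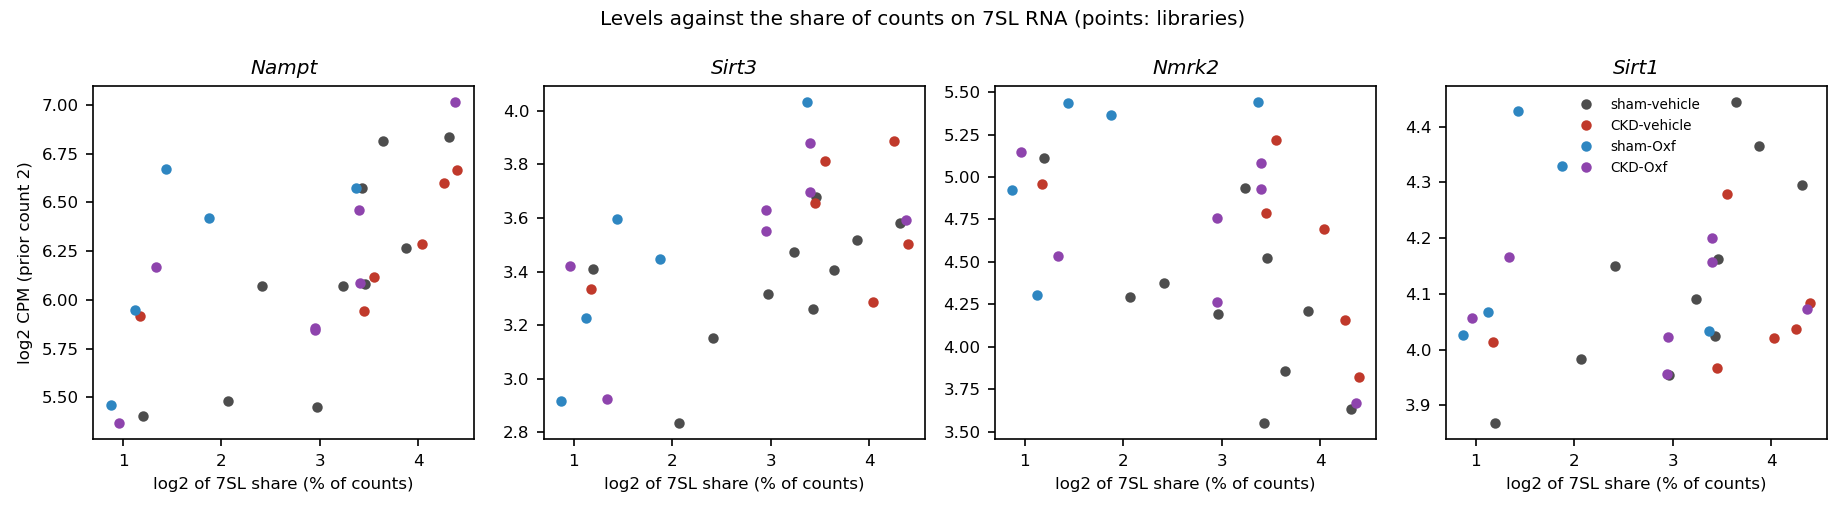
Log2 CPM (prior count 2) of Nampt, Sirt3, Nmrk2 and Sirt1 against the log2 percentage of counts on 7SL RNA; each point is 1 library, coloured by group. Nampt rises from left to right (0.33 per doubling within groups), Nmrk2 runs downward (-0.18), and Sirt1 has no clear slope.

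Slopes on the clock score and on mouse number passed in 0 of 10 members each, where 0.152% and 0.0371% of all genes passed. At an unadjusted p under 0.05 the counts were also 0 of 10 (9.14% and 5.5% of all genes), and none passed in 64 alternative fits, DESeq2 included. Nampt, whose gene is known to be driven by the clock, had a slope of 0.10 ± 0.10 per unit of clock score (unadjusted p = 0.318) and of 0.03 ± 0.03 per mouse number (unadjusted p = 0.304). The smallest unadjusted p was that of Sirt1, at 0.07 ± 0.04 per unit of clock score (unadjusted p = 0.0569, adjusted p = 0.549) and 0.02 ± 0.01 per mouse number (unadjusted p = 0.0526, adjusted p = 0.824). Of the members with an E-box in their window, Sirt1 and Parp1, the clock slopes had opposite signs, with Parp1 at -0.06 ± 0.04 (unadjusted p = 0.153).

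**Figure D5:**
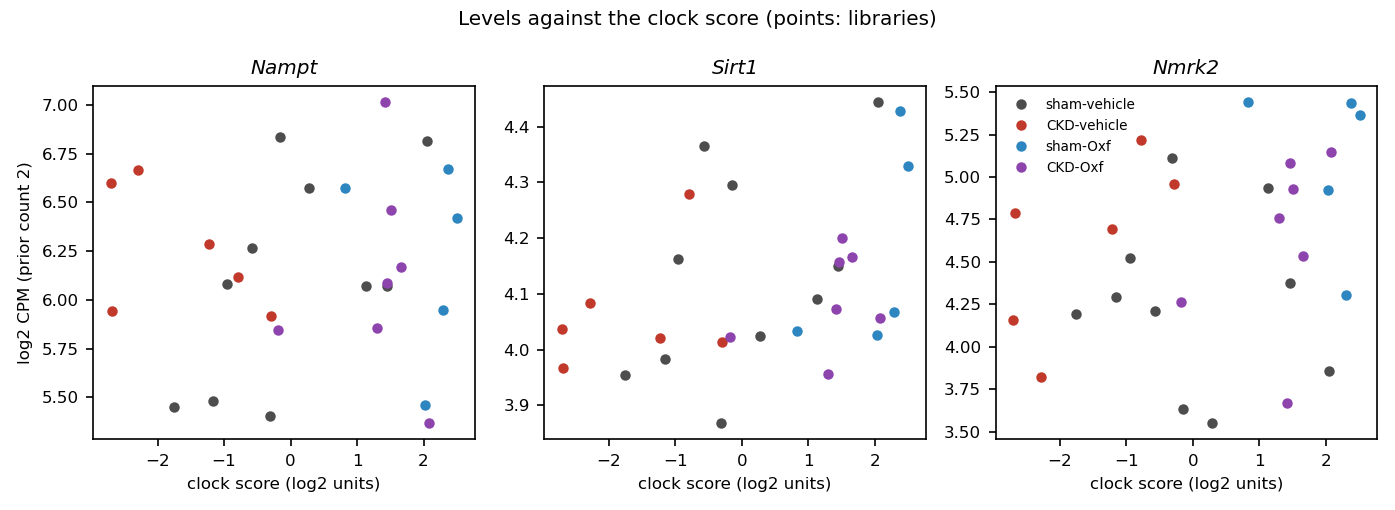
Log2 CPM (prior count 2) of Nampt, Sirt1 and Nmrk2 against the clock score (log2 units, 0 at the sham-vehicle mean); each point is 1 library, coloured by group. CKD-vehicle libraries lie at scores of -0.29 and below and sham-Oxf libraries at 0.83 and above. The test fitted 1 slope common to all groups beside the group means, and it passed for none of these genes.

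After subtraction of the group means, some members varied together over the 28 libraries, which share depth and 7SL content. The strongest pair was Nmnat1 and Nnmt, in opposite directions (Pearson r = -0.77). Nampt went with Sirt1 (r = 0.60), Nmnat1 with Sirt1 (r = 0.52) and Parp1 with Cd38 (r = 0.48). Nmrk2 went against Parp1 (r = -0.51) and against Nampt (r = -0.47). How often pairs of other genes reach such values was not tested. Nmrk1 and Nmnat3 gave r = 0.57, which was 0.23 without sham-Oxf replicate 1. By the same measure, the genes most like Nampt were Ube2b, a ubiquitin-conjugating enzyme, Klhl24, and Ppp1r3a, a muscle glycogen-targeting subunit of protein phosphatase 1 (r of 0.93, 0.93 and 0.92). For Sirt3 they were Cep68, Qrsl1 and Txnrd2, the mitochondrial thioredoxin reductase (0.81, 0.81 and 0.80). For Nmrk2 they were its neighbour Atcay (0.92), RP23-60F20.3 (0.90) and Pmm2 (0.89).

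Atcay, which encodes caytaxin, lies 2457 bases from Nmrk2 on chromosome 10. It ran from 3.48 to 24.0 CPM, with a median of 9.95. In sham mice it was 0.98 ± 0.28 higher with Oxf than with vehicle (adjusted p = 0.187), and the averaged Oxf difference was 0.68 ± 0.20 (adjusted p = 0.0595). Neither value passed. The averaged one passed with DESeq2 (adjusted p = 0.0271), with limma (adjusted p = 0.00631) and in edgeR with at least 10 counts in every library (adjusted p = 0.0429). It was 0.26 ± 0.34 with the clock score as a covariate (adjusted p = 0.859) and 0.44 ± 0.20 with the 7SL share (adjusted p = 0.265).

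Of 40 other genes of NAD metabolism, 38 were tested. In the group contrasts 1 of the 38 passed, in the averaged Oxf difference, where 2.81% of all genes did. Aox1, an aldehyde oxidase that oxidises methylated nicotinamide, was 0.58 ± 0.16 higher with Oxf averaged over surgery (adjusted p = 0.0463). Aox1 had a difference of 0.02 ± 0.23 (adjusted p = 0.987) with the clock score as a covariate and 0.50 ± 0.18 (adjusted p = 0.163) with the 7SL share. Over 28 fits that each left out 1 library its adjusted p ran from 0.00759 to 0.101, passing in 9. At an unadjusted p under 0.05, 7 of the 38 were higher and 1 lower in that contrast, against 23% of all genes in either direction. The median of the 38 was 0.089, against 0.0031 over all genes. The 5 other sirtuins gave no adjusted call in the group contrasts. In the averaged Oxf difference 2 of the 5, 1 higher and 1 lower, had an unadjusted p under 0.05 in edgeR (23% of all genes).

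In the slope on the 7SL share 15 of the 38 passed, where 37.7% of all genes did, so as a set they did not stand out. Per doubling of that share, 6 of the 38 rose and 9 fell. Nadk2, the mitochondrial NAD kinase, rose by 0.29 ± 0.05, Naprt, which starts NAD synthesis from nicotinic acid, by 0.21 ± 0.05, Macrod1, which removes ADP-ribose, by 0.19 ± 0.07, Parp9 by 0.14 ± 0.04 and Tnks2, a tankyrase, by 0.08 ± 0.03. Of 9 genes of synthesis from tryptophan, 7 were tested, and 4 of these fell, 1 rose (Ido1, adjusted p = 0.0461) and Tdo2 and Acmsd did not pass, the last 3 being named after their values were seen. Those that fell were Kynu (-1.38 ± 0.27), Haao (-0.62 ± 0.16), Kmo (-0.52 ± 0.17) and Afmid (-0.24 ± 0.05). Sirt6 (-0.18 ± 0.05) and Enpp1 (-0.18 ± 0.05), which breaks down extracellular nucleotides, fell as well. Over the fits that each left out 1 library, Kmo passed in 27 of 28 (adjusted p = 0.0933 without CKD-Oxf replicate 6), Macrod1 in 21 and Tnks2 in 17, with adjusted p up to 0.0878 for Macrod1 and 0.165 for Tnks2, both without sham-vehicle replicate 5. The part of liver or immune cells, in which the tryptophan genes are known to be high, was not tested.

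Nmrk2 is often listed with genes that stressed heart muscle turns up. Of 6 such genes (Nppa, Nppb, Myh7, Acta1, Ankrd1 and Xirp2), 1 passed in the averaged Oxf contrast, where 2.81% of all genes did. That gene, Nppb, which encodes the B-type natriuretic peptide, fell by 1.67 ± 0.29 (adjusted p = 0.00539), while Nmrk2 had a positive difference that did not pass. The Nppb difference was -0.69 ± 0.41 with the clock score as a covariate (adjusted p = 0.719) and -1.10 ± 0.25 with the 7SL share (adjusted p = 0.0341). In the averaged surgery contrast 4 of the 6 were higher at an unadjusted p under 0.05 (10.6% of all genes in either direction). None passed after adjustment, and Nmrk2 was at -0.06. In CKD-vehicle against sham-vehicle 4 of the 6 were also higher at that level (4.46%). None passed there after adjustment, and Nmrk2 was at 0.33 ± 0.24. For CKD-Oxf against sham-Oxf the count was 0 of 6 (8.23%), and Nmrk2 was at -0.45 ± 0.27.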

How the data were processed

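Total RNA from 28 ventricular samples was sequenced on an Illumina NovaSeq, per the labels' protocols. The submitters' processing notes name STAR 2.6.1d, featureCounts 1.6.3 (Subread), FastQC 0.11.7, MultiQC 1.9 and mm10; options, annotation and strand use are not given in the sources used here. The authors deposited raw read counts per gene, unnormalized. Genes passing edgeR's filterByExpr (minimum count 10 by group) numbered 24273 of 45513. Counts were scaled by TMM to CPM and tested with edgeR 4.0.16's robust quasi-likelihood fit over 4 groups (R 4.3.3), adjusted by Benjamini-Hochberg over all genes tested, threshold 0.05; a positive difference is higher in the first group or with Oxf or CKD. The code was tested on simulated data. DESeq2 1.42.0, limma 3.58.1 voom with quality weights, other scalings and filters, clock and 7SL covariates and leaving out each library were alternatives. The slope on the 7SL share, its alternatives, the TATA search and the neighbouring genes were added after seeing the data.

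The members and lists were chosen with earlier results of these data known. All 10 members were named. Other pathway genes were named where they passed in a contrast or slope (at most 12, smallest p first), Nppb because it was the 1 stress gene that passed, and genes most like a member (highest Pearson r of log2 CPM less group means, mean of at least 1 log2 CPM) for Nmrk2 and for members that passed a test. Atcayos was named for its overlap. Exon lengths and positions came from GENCODE on GRCm38, where 45465 of 45513 identifiers matched, and promoters from RefSeq on GRCm38.p6. Each library is labelled as a separate mouse.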

Additional observations from a re-analysis of the deposited data

Results flagged for a closer look

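In 2 of 40 tests of a member in a group, the highest library stood farther from the rest than Dixon's 95% limit, and chance alone would give about 2. Sirt1 in CKD-vehicle replicate 6 was at 19.4 CPM, where the next library had 16.9, a gap of 0.653 of the group's range. Cd38 in CKD-Oxf replicate 6 was at 17.6 CPM, where the next had 12.6, a gap of 0.766 of the range.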

How the results depend on the processing

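No member tested passed the threshold in any of the 200 alternative fits of the 7 contrasts or the 64 of the slopes on clock score and mouse number. For the 7SL slope, 1 member passed with the sham-vehicle group alone (fewer samples), against 2. Nmrk2 passed as well with DESeq2 and without sham-Oxf replicate 1, sham-Oxf replicate 3 or CKD-Oxf replicate 5. Counts over all genes moved more: the 681 genes of the averaged Oxf difference were 109 without CKD-vehicle replicate 2, 3362 without CKD-Oxf replicate 4, 5336 with limma and 0 with the clock covariate. The 8 genes of CKD-Oxf against CKD-vehicle were 927 without CKD-Oxf replicate 4, 0 without CKD-vehicle replicate 1, 3639 with limma and 0 with the clock covariate. The 2 of CKD-vehicle against sham-vehicle were 0 to 1 without a library and 93 with limma. Elsewhere DESeq2 called 100 genes for CKD-Oxf against sham-Oxf, limma 126 for averaged surgery, and the 7SL covariate 141 for sham-Oxf against sham-vehicle, each 0 as reported; the last was up to 20 without a library (sham-Oxf replicate 2). The 37 genes of the clock slope were 17 to 52 without a library and 8 to 153 otherwise, the 9 of the mouse number slope 2 to 15 and 2 to 17, and the 9151 of the 7SL slope 7641 to 10573 and 2493 to 11055.

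Of 2436 recomputed counts, differences, slopes and group means, 72 changed sign, all of differences that did not pass, and the cause was not tested. The counts and group means cannot be negative, so 72 of 2436 understates the share among values that could change sign. For the averaged Oxf difference, limma gave 0.016 for Nampt, 0.061 for Nmnat3, 0.0076 for Nmrk1 and -0.011 for Sirt3; the 7SL covariate gave 0.33 for Nampt and 0.018 for Parp1; upper quartile scaling gave 0.032 for Nampt and 0.0018 for Parp1; and the clock covariate gave 0.12 for Parp1 and -0.14 for Sirt1. For the averaged surgery difference, Nampt was at -0.015 with at least 10 counts in every library, -0.00714 with DESeq2 size factors, -0.00713 with DESeq2, -0.047 with limma, -0.22 with the 7SL covariate and -0.039 with upper quartile scaling. There the clock covariate gave 0.19 for Nmrk1, 0.034 for Nmrk2 and 0.020 for Nnmt, the 7SL covariate 0.056, 0.048 and 0.054 for the same genes, and limma 0.0014 for Nmrk2. For Nmrk2 in CKD-Oxf against CKD-vehicle, the clock covariate gave -0.26, the 7SL covariate -0.10 and no filter -0.000259.

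Leaving out 1 library moved the averaged Oxf difference from -0.11 to 0.073 for Nampt, from -0.13 to 0.016 for Nmnat3, from -0.14 to 0.040 for Nnmt, from -0.056 to 0.0015 for Parp1, from -0.0023 to 0.055 for Sirt1 and from -0.056 to 0.088 for Sirt3. The averaged surgery difference ran from -0.11 to 0.063 for Nampt, from -0.18 to 0.069 for Nmrk1 and from -0.15 to 0.032 for Nnmt. Nmrk2 in CKD-Oxf against CKD-vehicle ran from -0.094 to 0.16. With DESeq2 size factors or upper quartile scaling, no group mean moved by more than 1 SD of its group. Removing 1 library cannot by itself move a group mean that far, so nothing is drawn from that limit for those fits. With at least 10 counts in every library Nmrk1 was not tested. No paired analysis was possible because the labels give each mouse its own number and no number is shared between groups.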
